A study of Mus musculus with 8 samples.

Results

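Zfp42, Triml2 and Triml1 are 3 neighbouring genes of mouse chromosome 8 whose transcripts were abundant in naive pluripotent cells and close to undetected in primed ones. They make up 3 of the 22987 genes that the deposited tables list at a single locus, and they were picked by name and position after being selected on this difference in FPKM, so the difference between the states is described here and not tested. FPKM is the number of sequenced fragments scaled to transcript length and to library size, a unit that allows levels of different genes to be compared. Polyadenylated RNA was sequenced from 4 libraries of mouse embryonic stem cells (mESC) and 4 of epiblast stem cells (mEpiSC). The mESC were cultured with the cytokine LIF and came from the lines ESF122 (libraries 1 and 2) and ESF175/1 (libraries 3 and 4). The mEpiSC were cultured with the growth factor FGF2 and came from EpiSC5 (library 1), EpiSC7 (libraries 2 and 3) and EpiSC9 (library 4). Every culture was grown on irradiated embryonic fibroblasts, which were taken away before RNA extraction. The labels give no strain, genotype or sex for any line, and nothing in them says that 2 libraries of a line were separate cultures, so p-values here speak of differences among libraries that may be technical repeats.

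Zfp42, also known as Rex1, encodes a zinc finger protein that arose in placental mammals as a retroposed relative of the transcription factor Yy1, and its promoter is a standard reporter of the naive state. In female cells the Zfp42 protein takes part in the control of X inactivation: it represses Xist, and the ubiquitin ligase Rlim marks it for degradation. Triml1 and Triml2 encode members of the tripartite motif family, whose larger branch, the Trim genes, includes many ubiquitin ligases. The nearest large gene beyond Zfp42 is Fat1, an atypical cadherin used in many embryonic tissues, which has been described as sharing a chromosomal contact domain with these genes.

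The 3 genes occupy 177 kb. Triml1 lies at chromosome 8, 44215161 to 44226840, Triml2 at 44268476 to 44279238 and Zfp42 at 44380421 to 44392363, all in the mm9 build of the deposited tables. No other entry of the tables lies between them. In the RefSeq table of another build (GRCm38.p6) Triml1 and Zfp42 are transcribed from the minus strand and Triml2 from the plus strand, so that Triml1 and Triml2 point away from each other and Triml2 and Zfp42 towards each other. The starts of Triml1 and Zfp42 are 165523 bases apart in both builds. The start of Triml2 in RefSeq is 2586 bases nearer to Triml1 than the start of the deposited locus, so the window shown for Triml2 lies upstream of the gene model behind its FPKM.

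The 250 bases before each start are shown because the genes move together and the start regions can then be compared. They are taken from RefSeq (GRCm38.p6) and written 5′ to 3′ on the strand of the gene, with matches to the searched motifs in capitals. The window of Zfp42 is chr8:43307010-43307259 (minus strand), that of Triml2 is chr8:43180286-43180535 (plus strand) and that of Triml1 is chr8:43141487-43141736 (minus strand).
Zfp42: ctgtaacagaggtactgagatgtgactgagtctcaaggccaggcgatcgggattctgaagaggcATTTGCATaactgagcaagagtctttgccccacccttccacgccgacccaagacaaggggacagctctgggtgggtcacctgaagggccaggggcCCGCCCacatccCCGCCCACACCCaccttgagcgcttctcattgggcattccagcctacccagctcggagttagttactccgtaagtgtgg
Triml2: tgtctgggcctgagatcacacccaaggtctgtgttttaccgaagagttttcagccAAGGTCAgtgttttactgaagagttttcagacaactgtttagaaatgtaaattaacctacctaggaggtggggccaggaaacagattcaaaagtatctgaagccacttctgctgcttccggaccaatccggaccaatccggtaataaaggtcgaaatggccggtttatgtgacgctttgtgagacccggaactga
Triml1: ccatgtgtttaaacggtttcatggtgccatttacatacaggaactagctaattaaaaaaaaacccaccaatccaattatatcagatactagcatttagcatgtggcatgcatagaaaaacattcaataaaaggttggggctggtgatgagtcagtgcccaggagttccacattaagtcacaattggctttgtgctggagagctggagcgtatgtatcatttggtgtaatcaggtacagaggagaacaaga

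A set of 7 motifs was searched on both strands of windows that take in these bases and the 50 that follow the start. The octamer ATGCAAAT, bound by Oct4, was found once in the Zfp42 window, 186 bases before the start and on the reverse strand; 1.74% of all 32851 promoter windows hold it. The same window held the KLF motif CCACACCC 75 bases before the start (3.56% of all windows) and 2 copies of the GC box GGGCGG on the reverse strand (35.7% of all windows), of which the nearer overlaps the KLF match. The Triml2 window held the ESRRB motif AAGGTCA at 2 places, 195 bases before the start and across the start, where only the first falls in the printed stretch (4.72% of all windows). None of the 7 motifs was found in the Triml1 window, and the SOX motif CATTGT, the YY1 motif AAGATGG and the TATAAA box were found in none of the 3. The GC content of the 250 bases was 58.4% for Zfp42, 46.4% for Triml2 and 40.4% for Triml1, against a median of 52.4% over all windows. These windows held 9, 8 and 2 CpG dinucleotides in the same order, against a median of 6. The 3 starts thus share none of the searched motifs and differ in base composition. A match is a description of letters and does not show binding.

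Facts of the whole series bear on these values. The deposited intervals implied 24800000 to 38600000 fragments per library. The second principal component of the tested genes, 16.95% of the variance, set both libraries numbered 4 apart, at 33.46 in mESC 4 and 48.95 in mEpiSC 4 against −20.63 to −8.85 elsewhere. Markers went with the labels except for Pou3f1 and, in 1 library, T. The 6 naive markers summed to 89.4 to 163 FPKM in mESC. Of 4 primed markers, 3 (Fgf5, Otx2 and T) rose in mEpiSC by limma (Benjamini-Hochberg adjusted p under 0.05), as did 23.1% of all tested genes. Pou3f1 did not, with means of 12.4 FPKM in mESC and 11.9 in mEpiSC. T, a primitive streak factor, was at 38.8 FPKM in mESC 2, inside the mEpiSC range of 20.9 to 46.8, and at 1.95, 2.05 and 2.94 FPKM in mESC 1, 3 and 4. Fgf5 was also highest in mESC 2 among the mESC libraries (8.61 FPKM against 0.263 to 1.64). Fibroblast markers (12 genes) summed to 47.6 to 376 FPKM in mESC and 123 to 574 in mEpiSC, and 4 of 11 tested rose. With the replicate number as a block all 11 were called, counted in either direction. Among them Fn1 was lower in mEpiSC, with means of 84.8 FPKM in mESC and 47.6 in mEpiSC. Primitive endoderm markers (8 genes) summed to 5.56 to 7.39 and 22.0 to 116 FPKM, and 5 of 6 tested rose. Trophoblast markers (7 genes), whose cells can also express Zfp42, summed to 17.4 to 20.6 and 10.6 to 43.2 FPKM, and 1 rose and 1 fell of 4 tested. No gene of these lists was at 0 in all mEpiSC libraries, and the part of such cells in the results was not tested.

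In mESC the 3 genes kept one order in every library, with Zfp42 highest and Triml1 lowest. Zfp42 measured 96.0, 85.9, 171.2 and 167.3 FPKM in mESC 1 to 4, with a mean at or above that of 97.1% of the 11556 tested genes. Triml2 measured 39.6, 28.2, 61.4 and 65.2 FPKM in the same libraries. Triml1 measured 12.9, 8.98, 23.8 and 22.8 FPKM. All 3 were lowest in mESC 2 and higher in both ESF175/1 libraries than in both ESF122 libraries, while the proportions between them changed little. The level of Zfp42 was 2.42 to 3.05 times that of Triml2 and 7.20 to 9.56 times that of Triml1, and Triml2 was 2.58 to 3.14 times Triml1.

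In mEpiSC the values lay near the limit of what the libraries could register. Zfp42 measured 0.159, 0.109, 0.0144 and 0.491 FPKM in mEpiSC 1 to 4, which by the deposited intervals correspond to 17, 9, 1 and 46 fragments. Triml2 measured 0.175, 0.226, 0.0681 and 0.0337 FPKM, from 16, 16, 4 and 3 fragments. Triml1 measured 0.0335, 0.0108 and 0.0341 FPKM in mEpiSC 1, 2 and 4, from 4, 1 and 4 fragments, and was listed at 0 in mEpiSC 3. Together the 4 mESC libraries held 41242 fragments of Zfp42, 13448 of Triml2 and 6212 of Triml1, against 73, 39 and 9 in the 4 mEpiSC libraries. All intervals and fragment numbers cover counting error only.

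**Figure D1:**
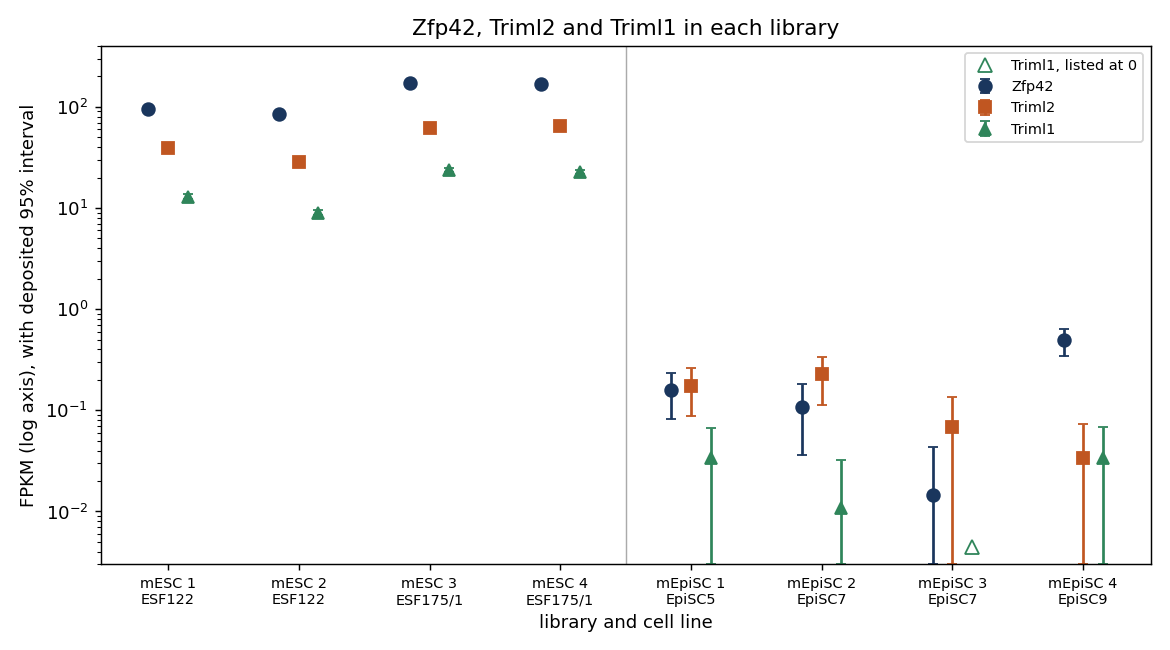
FPKM (log axis) of Zfp42, Triml2 and Triml1 in each library, labelled with its cell line; bars are the deposited 95% intervals, those that reach 0 run to the lower edge, and the open triangle marks the library where Triml1 is listed at 0. The mESC values run from 8.98 to 171.2 FPKM in a fixed order of genes, and no mEpiSC value exceeds 0.491 FPKM.

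The states did not overlap for any of the 3 genes. The lowest mESC value was 175.0 times the highest mEpiSC value for Zfp42, 125 times for Triml2 and 263 times for Triml1. The mean of Zfp42 was 130.1 ± 45.4 FPKM in mESC and 0.193 ± 0.207 in mEpiSC (SD, n = 4 each), and that of Triml2 was 48.6 ± 17.7 and 0.126 ± 0.0901 FPKM. On the scale of log2(FPKM + 1) the difference, mEpiSC minus mESC, was −6.73 (SE 0.25) for Zfp42, −5.39 (SE 0.25) for Triml2 and −4.05 (SE 0.28) for Triml1. Without both libraries numbered 4 the values were −6.70, −5.18 and −3.89. Because 1 is added before the logarithm, this scale understates the change of low genes, and its order of the 3 genes follows their mESC levels; with 0.1 added instead, the values were −8.98, −7.76 and −7.07. Of all tested genes 14.9% had every mESC value above every mEpiSC value, and 14.2% were called lower in mEpiSC by limma (Benjamini-Hochberg adjusted p under 0.05). Each of the 3 genes passed the filter of at least 1 FPKM in at least 4 libraries through the mESC libraries alone, and their selection used this contrast, so nothing is read from their place in it. In bulk RNA, fewer expressing cells and less RNA per cell cannot be told apart.

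The residual signal in mEpiSC was not shared by the 3 genes. Zfp42 was highest in EpiSC9, where its interval of 0.346 to 0.635 FPKM lay above the interval of EpiSC5 (0.0818 to 0.236) and those of both EpiSC7 libraries. Triml2 did not follow Zfp42: its EpiSC9 interval of 0 to 0.0725 FPKM lay below that of EpiSC5 (0.0877 to 0.263) and that of mEpiSC 2 (0.113 to 0.339). It overlapped that of mEpiSC 3 (0 to 0.136), the other EpiSC7 library, where the values rest on 3 fragments in EpiSC9 and 4 in mEpiSC 3. Zfp42 lay above Triml2, as in mESC, only in EpiSC9 among the mEpiSC libraries. There Triml2 (0.0337 FPKM) was not above Triml1 (0.0341 FPKM), so the full mESC order did not hold. The 2 EpiSC7 libraries held 0.109 and 0.0144 FPKM of Zfp42, with intervals that overlapped (0.0362 to 0.181 and 0 to 0.0433). EpiSC5 and EpiSC9 have 1 library each, so no spread within those lines is known. The summed level of 6 naive markers (Esrrb, Klf2, Klf4, Tfcp2l1, Tbx3 and Prdm14) was 9.51 FPKM in EpiSC9 and 7.91 to 12.1 FPKM in the other mEpiSC libraries.

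Within the naive state all 3 genes were higher in ESF175/1 than in ESF122, a contrast that the difference between the states does not use. Zfp42 averaged 169.2 ± 2.74 FPKM in ESF175/1 and 90.9 ± 7.15 in ESF122 (SD, n = 2 each), Triml2 63.3 ± 2.68 and 33.9 ± 8.06, and Triml1 23.3 ± 0.659 and 10.9 ± 2.77. The ratios of these means were 1.86, 1.87 and 2.13. Both ESF175/1 values lay above both ESF122 values for each gene, as they did for 18.5% of all tested genes. The log2 difference was 0.89 for Zfp42 (95% interval 0.54 to 1.24), 0.90 for Triml2 (0.42 to 1.38) and 1.04 for Triml1 (0.56 to 1.53), and 182 tested genes (1.57%) had a difference at least as high as Zfp42. The spread behind these intervals draws on every line with 2 libraries. That includes EpiSC7, where the 3 genes were near 0 and could vary little on this scale. When limma was given a separate mean for each line, none of the 3 passed the threshold of 0.05 after Benjamini-Hochberg adjustment over all genes: the adjusted p was 0.062 for Zfp42, 0.14 for Triml2 and 0.093 for Triml1, in a comparison where 0.762% of genes were called. With 1 library left out, the log2 difference ran from 0.81 to 0.97 for Zfp42, 0.66 to 1.14 for Triml2 and 0.81 to 1.28 for Triml1.

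No naive or primed marker passed the test between the mESC lines. All 6 naive markers had a positive difference, with a median of 0.84 against −0.02 over all genes. Klf4, a factor of the naive network, had the largest of these (log2 1.03, limma adjusted p = 0.14), and Klf2 the smallest (0.17, adjusted p = 0.84). The 4 primed markers all had a negative difference, among them Otx2 (log2 −1.21, adjusted p = 0.076), and their summed level was 46.7 and 79.4 FPKM in ESF122 against 23.8 and 22.8 in ESF175/1. For T the sign rests on mESC 2, where it was at 38.8 FPKM and all 3 members were at their lowest mESC level; in mESC 1 T was at 1.95 FPKM, below both ESF175/1 libraries. Fibroblast markers summed to 376 and 106 FPKM in ESF122 and 164 and 47.6 in ESF175/1. Of the 4 general pluripotency markers, Pou5f1 (Oct4) differed by −0.01, Sox2 by 0.70, Nanog by 0.30 and Sall4 by −0.39. None of these passed the test either. The part of these cells or markers in the difference of Zfp42 and the Triml genes was not tested.

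**Figure D2:**
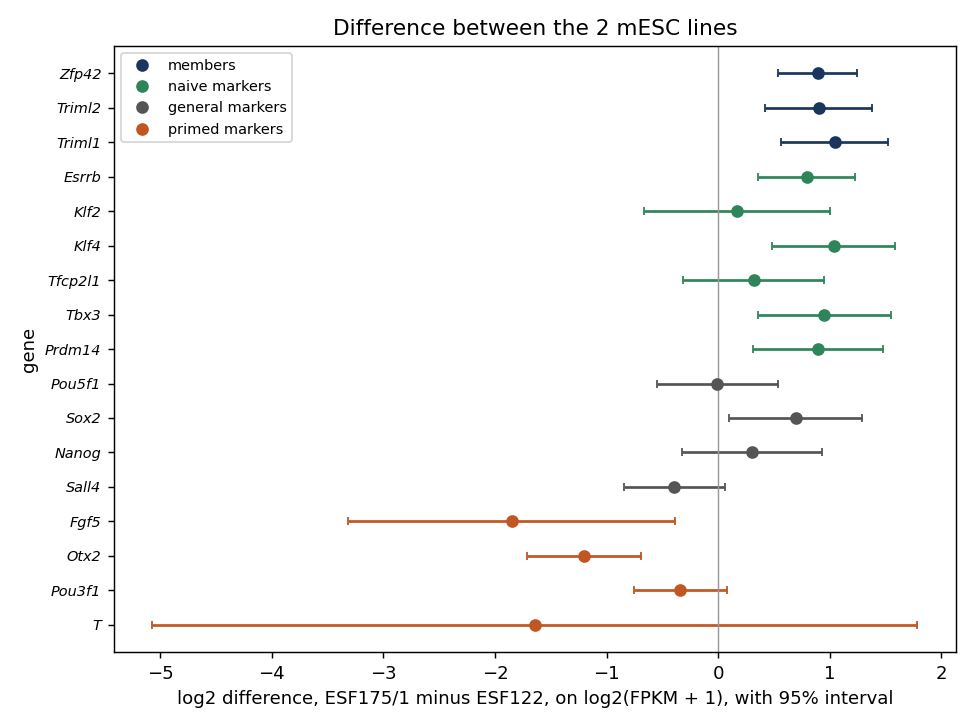
Difference between the mESC lines (ESF175/1 minus ESF122, on log2(FPKM + 1), from limma with a separate mean for each line) for the 3 genes and for naive, general and primed pluripotency markers; points are estimates and bars 95% intervals, 2 libraries per line. The 3 genes lie between 0.89 and 1.04, all 6 naive markers are positive and all 4 primed markers negative, that of T through mESC 2 (38.8 FPKM) alone; no gene shown passed the adjusted test.

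Of 18 other genes within 2 Mb on either side, 5 passed the filter and could be tested, and 1 of them was called lower and none higher in mEpiSC by limma, where 14.2% and 23.1% of all tested genes were called lower and higher. Within 1 Mb only 5 entries are listed (Adam26b, Adam26a, Adam34, Gm5346 and Gm5347, on the side of Zfp42), and all were listed at 0 in every library; the Adam genes encode membrane proteases of the testis. The nearest of them, Adam26b, begins 213 kb from Zfp42, and the nearest entry on the other side, 2810404M03Rik, ends 1.08 Mb from Triml1 and reached at most 0.0172 FPKM. The 3 genes thus stood alone as expressed genes in a stretch bounded by Frg1, 1.71 Mb from Triml1, and Fat1, 1.64 Mb from Zfp42.

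Fat1 was expressed in both states. It measured 26.5, 32.6, 24.2 and 16.0 FPKM in mESC 1 to 4 and 32.9, 32.2, 30.1 and 17.6 FPKM in mEpiSC 1 to 4, so that the groups overlapped and both libraries numbered 4 were the lowest of their state. The log2 difference was 0.18 (95% interval −0.39 to 0.75; limma adjusted p = 0.61), which does not show that the states are alike but leaves out a change of the size seen in Zfp42. Between the mESC lines Fat1 had the opposite sign to the 3 genes (log2 −0.56, adjusted p = 0.31).

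On the other side Frg1, Asah1, a lysosomal ceramidase, and Pcm1, a protein of centriolar satellites, were expressed at 21.9 to 47.8 FPKM in all libraries. Their log2 differences of −0.26, −0.23 and −0.05 did not pass the test (limma adjusted p = 0.16, 0.24 and 0.80). Frg1 was called with median ratio scaling (log2 −0.37, adjusted p = 0.039), and Asah1 without mEpiSC 4 (log2 −0.37, adjusted p = 0.015) and without both libraries numbered 4 (−0.39, 0.0062). The gene called lower was Mtus1, a microtubule-associated protein at the edge of the window, at 6.04 ± 0.848 FPKM in mESC and 2.92 ± 0.424 in mEpiSC (SD, n = 4 each; log2 −0.84, adjusted p = 0.0024). Gm6329, a predicted gene 1.85 Mb beyond Zfp42, was at 1.04 and 1.19 FPKM in ESF175/1, at 0.151 and 0.0586 in ESF122 and listed at 0 in all mEpiSC libraries, so it too was higher in ESF175/1; it did not pass the filter and was not tested. AY512931, next to Fat1, was also higher in every mESC library (0.0926 to 0.319 FPKM) than in any mEpiSC library (0.00751 to 0.0397), at levels that did not pass the filter. Cyp4v3, also below the filter, went the other way, at 0.0640 to 0.207 FPKM in mESC and 0.342 to 0.762 in mEpiSC. Of all tested genes, 14.9% had every mESC value above every mEpiSC value.

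**Figure D3:**
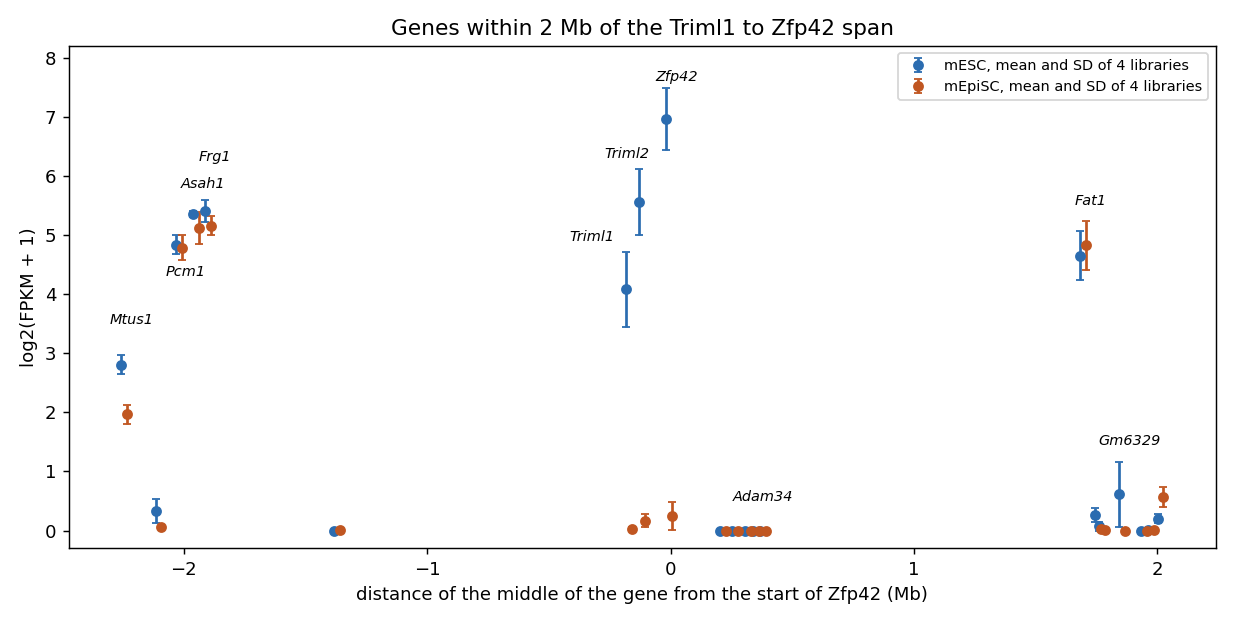
Level, as log2(FPKM + 1), of the 3 genes and the 18 others within 2 Mb, by the distance of the middle of each gene from the start of Zfp42 in Mb (mm9 loci); points are means and bars SDs of 4 libraries per state, drawn slightly apart. Zfp42, Triml2 and Triml1 are high in mESC and near 0 in mEpiSC, Fat1 and the group of Frg1, Asah1 and Pcm1 have similar means in both, and the entries between are at or near 0.

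The relatives of Zfp42 behaved otherwise. Yy1, the ubiquitous factor from which it derives, measured 36.5 ± 3.11 FPKM in mESC and 39.9 ± 5.02 in mEpiSC (SD, n = 4 each; log2 0.12, limma adjusted p = 0.49). Yy2, a second retroposed copy on the X chromosome, measured 6.13 ± 1.13 and 5.46 ± 2.34 FPKM (log2 −0.20, adjusted p = 0.57). In mESC the level of Zfp42 was above that of Yy1 in every library, and in mEpiSC it was below it in every library.

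Of 9 genes chosen for X inactivation, some of them neighbours of Xist, 6 were listed at a single locus and 4 could be tested. Of these 4, 2 fell and 1 rose in mEpiSC, beside 14.2% and 23.1% of all tested genes. Rlim fell from 53.7 ± 14.4 to 25.6 ± 4.25 FPKM (log2 −1.01, SE 0.21, limma adjusted p = 0.0061), and Tsix, the antisense transcript of Xist, from 1.52 ± 0.527 to 0.0794 ± 0.0386 FPKM (log2 −1.20, adjusted p = 7.8e-04). Xist rose (log2 3.55, SE 0.83, adjusted p = 0.0096; 4.52 without EpiSC5), from 0.143 to 1.66 FPKM in mESC to 36.1, 41.0 and 41.0 FPKM in mEpiSC 2 to 4, but was at 1.75 FPKM in EpiSC5, close to the mESC range. Chic1, a neighbour of Xist, stayed at 3.72 ± 0.852 and 3.64 ± 0.265 FPKM (limma adjusted p = 0.97). Enox and Cdx4 did not pass the filter. Enox was higher in every mEpiSC library (0.717 to 0.914 FPKM) than in any mESC library (0.0764 to 0.259), and the states overlapped for Cdx4. EpiSC5 and EpiSC9 thus differed by over an order of magnitude in Xist while Zfp42 was under 0.5 FPKM in both. Xist and Tsix overlap on opposite strands, and without a statement on strand their reads cannot be told apart.

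Imprinted genes of the Peg3 and Gnas domains, where binding of the Zfp42 protein has been described, were compared as well. Of 6 genes chosen, 5 were listed at a single locus and 2 could be tested. Both of these rose in mEpiSC, as did 23.1% of all tested genes. Peg3 rose from 9.34 ± 5.11 to 53.1 ± 19.7 FPKM (log2 2.44, SE 0.41, limma adjusted p = 0.0021). Gnas rose from 98.7 ± 30.8 to 368 ± 39.0 FPKM (log2 1.93, SE 0.21, limma adjusted p = 3.1e-04). Nespas, antisense to a part of the Gnas domain, did not pass the filter and was lower in every mEpiSC library (0.389 to 0.664 FPKM) than in any mESC library (0.862 to 1.01). Usp29 and Zim1 did not pass the filter either, and the states overlapped for both. Between the mESC lines both tested genes had the opposite sign to Zfp42, at log2 −1.23 and −0.72 (adjusted p = 0.18 for each).

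Factors that occupy naive regulatory regions, some of them known to act on the Zfp42 promoter, went down in part. Of 12, all tested, 7 fell in mEpiSC and none rose, where 14.2% of all tested genes fell and 23.1% rose, with a median log2 difference of −2.0 against 0.08 over all genes. Klf2 fell from 34.7 ± 5.02 to 4.38 ± 2.58 FPKM (log2 −2.85, limma adjusted p = 3.3e-04) and Klf5 from 30.9 ± 11.4 to 5.22 ± 1.91 FPKM (log2 −2.32, adjusted p = 8.0e-04). The others that fell were Esrrb, Klf4, Tfcp2l1, Tbx3 and Prdm14, and the 5 that did not pass were Pou5f1, Sox2, Nanog, Sall4 and Nr5a2. In mEpiSC, Zfp42 was therefore at under 0.5 FPKM in libraries that held 449.6 ± 121.3 FPKM of Pou5f1. Nr5a2, a nuclear receptor, was at 14.3 FPKM in EpiSC9, the mEpiSC line with the most Zfp42, and between 0.0625 and 0.331 FPKM in EpiSC5 and EpiSC7. Its log2 difference between the states was −2.02 (limma adjusted p = 0.077), and it passed the test with the replicate number as a block (adjusted p = 0.033) and without EpiSC9 (log2 −2.95, adjusted p = 4.0e-04). Without EpiSC9, Sall4 was called higher (log2 0.67, adjusted p = 0.018), and without mESC 2 Sox2 was called lower (log2 −0.89, adjusted p = 0.036).

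The Trim genes, from which Triml1 and Triml2 are named, showed no common direction. Of 66 listed, 36 passed the filter, and 8 fell and 5 rose in mEpiSC, beside 37.3% of all tested genes called in either direction; their median log2 difference was −0.04. The largest falls were those of Trim25 (log2 −3.10, limma adjusted p = 0.0093), a ubiquitin ligase of antiviral signalling, Trim13 (−2.25) and Trim6 (−2.04). Trim6 measured 76.2 ± 15.5 FPKM in mESC and 18.1 ± 5.71 in mEpiSC. Its mESC values, like those of Triml1 and Triml2, were higher in both ESF175/1 libraries (87.2 and 91.5 FPKM) than in both ESF122 libraries (66.9 and 59.4). The same held for 18.5% of all tested genes. Most Trim genes went the other way between the mESC lines: 8 of the 36 tested had a positive difference, with a median log2 of −0.21. Trim25 was at 23.1 FPKM in EpiSC9 and between 0.711 and 6.09 FPKM in EpiSC5 and EpiSC7, and without EpiSC9 its log2 difference was −3.85. Trim63 (−1.43) and Trim24 (−1.03) fell less, and Trim44 (1.53), Trim62 (1.05), Trim56 (0.98), Trim68 (0.83) and Trim32 (0.75) rose; the call of Trim56 (adjusted p = 0.048) was lost in 11 of the other settings, with adjusted p up to 0.13. Trim52 did not pass the filter, but was at 0.632, 0.193, 2.01 and 1.76 FPKM in mESC 1 to 4, listed at 0 in mEpiSC 1 to 3 and at 0.00756 FPKM in mEpiSC 4, so that like the members it was higher in mESC and, there, higher in ESF175/1.

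**Figure D4:**
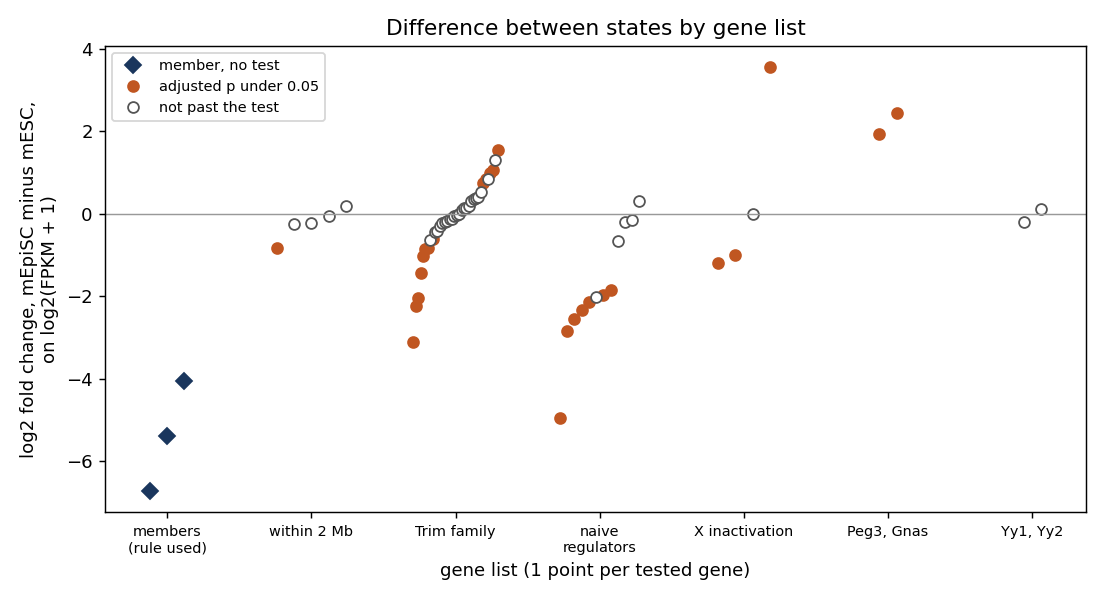
Difference between the states (mEpiSC minus mESC, on log2(FPKM + 1)) for the 3 genes, shown as diamonds without a test, and for the tested genes of the neighbourhood and of the related lists; each point is 1 gene, filled where the limma adjusted p was under 0.05. The 3 genes lie at −6.73, −5.39 and −4.05, the 5 neighbours between −0.84 and 0.18, and the 36 Trim genes on both sides of 0.

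The genes with the profile most like that of Zfp42 were sought among 7244 others with at least 5 FPKM in mESC. Likeness was the root mean square difference over the 8 libraries between log2(FPKM + 1) profiles, each centred on its own mESC mean, and is a description. The nearest were Rpl10l (0.51), Rpl29 (0.63), Dnmt3l (0.68), a cofactor of DNA methylation, Tdh (0.77), the threonine dehydrogenase, and Rps4y2 (0.85). Entries named for ribosomal proteins can share reads with near-identical copies, so their levels are uncertain. Triml2 ranked 8 (0.97) and Triml1 ranked 30 (1.90), the latter held back by its lower mESC level, from which it cannot fall as far on this scale. None of the 5 lies on chromosome 8. Rpl10l was, like Zfp42, higher in both ESF175/1 libraries (86.5 and 129 FPKM) than in both ESF122 libraries (68.0 and 36.1). Rps4y2 was too (353 and 759 against 351 and 289 FPKM), as were 18.5% of all tested genes. Rpl29 was not (77.2 and 157 against 172 and 167 FPKM), nor were Dnmt3l (106 and 133 against 150 and 60.9) and Tdh (79.3 and 55.3 against 46.7 and 57.2).

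Sequence shared with other genes made up a small part of the 3 transcripts. Of windows of 50 bases of their GENCODE vM21 transcripts, 8.52% for Zfp42 also occur in another gene, the pseudogene Zfp42-ps1. The share was 1.85% for Triml2, spread over 262 genes, and 0% for Triml1. Whether shared sequence supplied any of the few mEpiSC fragments of Zfp42 or Triml2 was not tested. No other gene model of that annotation overlaps the 3 genes on either strand, so the open question of strand does not bear on their values in the way it does for Xist and Tsix.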

How the data were processed

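RNA-seq of polyadenylated RNA was deposited as FPKM per gene and library, with 95% intervals and a status, made by the authors with TopHat2 2.0.6 and Cufflinks 2.0.2 on mm9 per the submitters' processing notes; the annotation, the options and any use of strand were not given in the sources used here. Tables hold 23699 entries per library; 712 entries of symbols at several loci were left out, and 0 columns were unused. Depth is known only through the intervals: the upper arm of each interval was read as 2 standard errors of a Poisson count, and all 11 member values above 0 in mEpiSC then came out as whole fragments (tolerance 0.001).

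Differences were tested with limma 3.58.1 (R 4.3.3, statmod 1.5.0; trend and robust options) on log2(FPKM + 1). The 11556 genes tested had 1 FPKM or more in no fewer than 4 libraries, with Benjamini-Hochberg adjustment over all of them and a threshold of 0.05: between the states over all 8 libraries, and between the mESC lines with 1 mean per line. The scripts were checked on data with known changes. Promoter windows came from RefSeq (3 of 3 members matched).

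The members and lists were chosen with earlier results of these data known. Named genes were the members, those within 2 Mb that reach 1 FPKM in a library and the nearest entry on each side. The others were the 5 most like Zfp42, members of lists of up to 12 genes and the 5 Trim genes of largest change per direction past the test. Gm5346, Gm5347, Adam26a, Adam34, AY512931, Cyp4v3 and Trim52 were named after their values were seen.

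Both states use the same replicate numbers, for different lines. Deviations from the state means correlated across genes at 0.22, 0.15, 0.18 and 0.51 for same-numbered libraries, all over 0.1, which met the criterion set for pairing, although no label states one. Pairs of different number also exceeded 0.1, and mESC 2 with mEpiSC 3 (0.19) and mESC 3 with mEpiSC 2 (0.21) exceeded their own. The tests reported have no block; the block was an alternative. Alternatives were other pseudocounts, filters, scalings and windows, no trend, blocks by number or line, and each library left out; leaving out both libraries numbered 4 was added after the data were seen.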

Additional observations from a re-analysis of the deposited data

Results flagged for a closer look

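Values of 98 groups of 4 libraries were screened for 1 library whose gap to the nearest other exceeded the 95% critical value of Dixon's test, and 13 were found; chance gives about 1 in 20 groups. None concerned Zfp42, Triml1 or Triml2. In the neighbourhood they were Mtus1 in mESC 3 (7.31 FPKM against 5.53 to 5.71 in the other mESC libraries), Asah1 in mESC 4 (37.7 against 40.6 to 40.9) and Asah1 in mEpiSC 4 (45.3 against 30.6 to 31.0). Among genes with a profile like Zfp42 they were Rpl29 in mESC 3 (77.2 FPKM against 157 to 172) and Rps4y2 in mESC 4 (759 against 289 to 353). Among Trim genes they were Trim13 in mEpiSC 4 (10.2 FPKM against 3.42 to 4.23) and Trim24 in mEpiSC 3 (17.6 against 14.1 to 14.2). Among genes of X inactivation they were Xist in mEpiSC 1 (1.75 FPKM against 36.1 to 41.0), Tsix in mESC 3 (2.31 against 1.21 to 1.29), and Cdx4 in mESC 2 (0.196 against 0.0439 to 0.0678) and in mEpiSC 4 (0.167 against 0 to 0.0285). Among the naive regulators they were Tfcp2l1 in mESC 3 (15.1 FPKM against 9.17 to 9.95) and Nr5a2 in mEpiSC 4 (14.3 against 0.0625 to 0.331).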

How the results depend on the processing

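The direction of the 3 members between the states and between the mESC lines held in every setting run. With pseudocounts of 0.1 and 5 the state difference was −8.98 and −4.64 for Zfp42, −7.76 and −3.32 for Triml2 and −7.07 and −2.08 for Triml1, as adding a constant compresses low values. With 1 library left out it ran from −6.90 to −6.57, −5.62 to −5.22 and −4.31 to −3.87. The line difference ran from 0.81 to 0.97, 0.66 to 1.14 and 0.81 to 1.28 in the same way, and that of Zfp42 passed the test with a pseudocount of 5 (0.86, limma adjusted p = 0.040). The count of neighbours called (1) was 3 with no filter, 2 with median ratio scaling and 2 without both libraries numbered 4. It was 1 to 2 with 1 library left out (2 without mEpiSC 4) and 0 with a mean of at least 5 FPKM (Mtus1 not tested). Within 1 Mb it was 0, as no gene there could be tested. Within 5 Mb it was 12 of 33 tested, 6 higher and 6 lower, beside 37.3% of all tested genes called in either direction. With a mean of at least 5 FPKM, which tests fewer genes, the count was 8 for the Trim list (13), 2 for fibroblast markers (4) and 1 for primitive endoderm markers (5). With no filter the latter counts were 2 and 3, and a random block for cell line gave 2 and 3. With 1 library left out they ran from 2 (without mESC 3 or mEpiSC 1) to 7 (without mESC 1) and from 3 (without mESC 3) to 5. Fibroblast markers counted 11 with the replicate number as a block, which moved no other count by over 1.5 times. The cause of these shifts, other than fewer genes or the pseudocount, was not tested. Depth limits the mEpiSC values of the members, which rest on 0 to 46 fragments each.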
